A study of Mus musculus with 12 samples.

Results

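The REG family of regenerating proteins was followed across pancreatic islet transcriptomes of mice with and without Wfs1, the gene of the endoplasmic reticulum protein wolframin. Its 7 members in the expression table (Reg1, Reg2, Reg3a, Reg3b, Reg3d, Reg3g and Reg4) were taken by gene name from 24078 rows, and all 7 were listed and passed the filter on low values. They were set beside Ctrb1, which encodes the digestive proenzyme chymotrypsinogen B and served as the measure of exocrine RNA. Islets came from male F2 hybrids of 129S6/SvEvTac and C57BL/6 aged 5 to 6 months. The Wfs1tm1Koks allele carries a LacZ cassette in place of most of exon 8, and 4 wild-type (WT), 4 heterozygous (Wfs1HZ) and 4 homozygous (Wfs1KO) animals were sequenced as separate individuals. The allele is constitutive, so that every cell of a Wfs1KO animal carried it. Islets were released with collagenase, picked by hand and kept overnight in high-glucose medium, and each value is RNA of all cells of a pick.

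REG proteins are small secreted proteins with a C-type lectin fold. The first members were found in regenerating islets and as pancreatic stone protein, and the healthy pancreas makes several of them in its acinar cells, which also make the digestive enzymes. Reg3b and Reg3g are known as pancreatitis-associated and antibacterial proteins whose genes are induced through STAT3 by IL-6 and IL-22, and the glycosyltransferase Extl3 has been proposed as a receptor of the family.

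Of the genes, 6 form a cluster on mouse chromosome 6. In the GENCODE annotation of GRCm38 they lie, in order, as Reg3b (chr6:78370657-78373466), Reg3d (chr6:78375874-78378865), Reg3a (chr6:78380709-78383827), Reg2 (chr6:78395623-78408106), Reg1 (chr6:78422711-78428667) and Reg3g (chr6:78466269-78468872), with Reg3d and Reg3g on the minus strand and the others on the plus strand. Reg4 lies apart, on the plus strand of chromosome 3 (chr3:98222156-98236748). All 7 are annotated as protein coding. The members are related in sequence, and the closest transcripts were Reg1 and Reg2 with 79.7% identical bases, Reg3a and Reg3b with 75.9%, and Reg3b and Reg3g with 74.7%. The longest run of bases shared by any pair was 35, between Reg3b and Reg3g, and no other pair shared more than 24. Reads were 75 bases forward and 35 bases reverse, so that a forward read could not match 2 members without a mismatch. How reads that fit more than 1 member were counted is not given in the sources used here.

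The sequences before the start sites are shown because 4 of the clustered members moved together across animals and the other 2 moved with exocrine RNA, as described below. They are RefSeq sequences of GRCm38.p6, 5′ to 3′ on the strand of the gene. All 7 members had an entry, and up to 250 bases ending just before the RefSeq start were searched on both strands. Capitals mark the E-box CACCTG, the STAT consensus TTCNNNGAA and the TATA box TATAAA, which were picked after the sequences had been read. For Reg1 and Reg3b, only the stretch outside annotated exons is printed, which leaves out their TATA boxes and the E-box of Reg3b.
Reg1 (chr6:78425733-78425929, plus): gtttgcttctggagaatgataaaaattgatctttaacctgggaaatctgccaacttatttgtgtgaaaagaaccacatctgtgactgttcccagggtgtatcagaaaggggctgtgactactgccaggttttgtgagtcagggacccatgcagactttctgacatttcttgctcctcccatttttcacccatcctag
Reg3d (chr6:78378866-78379115, minus): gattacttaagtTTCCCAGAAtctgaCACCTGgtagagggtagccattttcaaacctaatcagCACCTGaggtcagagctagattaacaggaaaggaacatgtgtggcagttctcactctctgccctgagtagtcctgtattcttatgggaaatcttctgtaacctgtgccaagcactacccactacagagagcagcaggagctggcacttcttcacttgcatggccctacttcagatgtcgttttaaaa
Reg2 (chr6:78404905-78405154, plus): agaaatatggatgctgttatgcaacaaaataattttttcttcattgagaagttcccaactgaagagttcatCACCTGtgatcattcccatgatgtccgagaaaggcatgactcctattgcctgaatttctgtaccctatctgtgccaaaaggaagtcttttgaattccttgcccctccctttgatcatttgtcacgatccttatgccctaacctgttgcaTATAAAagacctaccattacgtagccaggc
Reg3b (chr6:78370707-78370860, plus): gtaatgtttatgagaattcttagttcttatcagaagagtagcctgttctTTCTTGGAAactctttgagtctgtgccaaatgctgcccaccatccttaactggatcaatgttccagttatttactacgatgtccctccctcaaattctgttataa
Reg3g (chr6:78468875-78469124, minus): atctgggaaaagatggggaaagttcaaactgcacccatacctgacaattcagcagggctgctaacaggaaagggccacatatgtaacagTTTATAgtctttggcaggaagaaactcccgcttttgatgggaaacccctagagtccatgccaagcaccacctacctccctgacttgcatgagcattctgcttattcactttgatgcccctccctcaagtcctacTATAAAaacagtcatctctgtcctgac
Reg3a (chr6:78380459-78380708, plus): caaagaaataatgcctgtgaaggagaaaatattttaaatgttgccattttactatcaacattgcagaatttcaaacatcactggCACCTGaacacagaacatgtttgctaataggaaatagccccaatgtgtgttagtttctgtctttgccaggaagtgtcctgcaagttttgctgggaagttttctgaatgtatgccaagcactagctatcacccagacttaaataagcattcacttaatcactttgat

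In the full windows, CACCTG was found in Reg2, Reg3a, Reg3b and Reg4 (1 match each) and in Reg3d (2 matches), and not in Reg1 or Reg3g. It stood 166 to 224 bases before the start in the clustered genes that held it, and 17.2% of 32851 promoter windows of the same length held it. TTCNNNGAA was found in Reg3b, 129 bases before the start, and in Reg3d, 238 bases before it, against 7.02% of all windows. TATAAA stood 27 to 30 bases before the start of Reg1, Reg2, Reg3b and Reg3g, against 12.4% of all windows that held it at any position, and Reg3g had a further match on the opposite strand, shown as TTTATA. Reg3b and Reg3g, the pair with the longest shared run of transcript, also had the most similar windows, with 69.2% identical bases, and Reg1 and Reg2 had 62.4%. None of the 3 motifs split the 6 clustered genes the way their RNA levels did below.

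Levels were deposited as RPKM, which divides a gene's reads by transcript length and by the library's mapped reads, so that values of different genes are compared per length. The spacing of values of short RNAs put the read total behind the RPKM of a library at 2170000 (Wfs1HZ replicate 2) to 9470000 reads (Wfs1KO replicate 1). The study gives much higher totals of reads per sample, without per-sample values, and whether those count reads before mapping is not given in the sources used here. Limits of detection below rest on the lower, estimated totals. Wfs1 itself, the targeted gene, was at 2.45 to 6.61 RPKM in Wfs1KO, below every WT value (24.9 to 33.9 RPKM), with Wfs1HZ at 4.69 to 16.4 RPKM. Insulin and glucagon RNA marked all 12 picks as islets, with Ins1 at 4981 to 91587 RPKM and Gcg at 50073 to 217165 RPKM.

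Exocrine RNA differed widely between picks and set 2 libraries apart. Ctrb1 was at 6393 RPKM in Wfs1HZ replicate 2 and 6079 RPKM in Wfs1KO replicate 4, and the next lowest animal was 6.43-fold higher. The other 10 animals lay between 41103 and 258070 RPKM. All 27 acinar markers that were listed had RNA in every animal, and together they made up 2.50% and 2.19% of summed RPKM in those 2 libraries and 12.1 to 51.6% in the others. Values that rest on these 2 libraries are given below with and without them. In bulk RNA of this kind, fewer cells of a type and less RNA per cell cannot be told apart.

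REG RNA was abundant in these islet picks and its amount ran over a wide range. The 7 members summed to 272.87 RPKM in Wfs1KO replicate 4 and to 19467 RPKM in Wfs1HZ replicate 4, which was 0.0520 to 2.56% of all summed RPKM. WT animals lay between 0.691 and 1.44%. The 2 exocrine-poor libraries had the lowest shares, 0.0520 and 0.0878%, and the remaining animals had at least 0.460%.

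Reg1, which encodes lithostathine or pancreatic stone protein, was the most abundant member in all 12 animals. It was at 2138, 1870, 3409 and 4037 RPKM in the 4 WT animals, at 4154, 269.63, 1900 and 8684 RPKM in Wfs1HZ and at 2827, 2020, 5781 and 229.87 RPKM in Wfs1KO. Genotypes overlapped, and the low value of each mutant group was the exocrine-poor library. Leaving those aside, Reg1 spanned 1870 to 8684 RPKM.

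Reg3d, known as islet neogenesis associated protein-related, was far less abundant and had the same order of animals at its ends. WT islets held 37.4, 32.1, 60.9 and 96.2 RPKM. Wfs1HZ islets held 113.9, 6.40, 44.3 and 284.75 RPKM and Wfs1KO islets 73.1, 36.9, 200.63 and 2.33 RPKM. The 3 genotypes overlapped, and Wfs1HZ replicate 4 was highest for Reg3d as it was for Reg1.

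Reg2, the closest relative of Reg1, was the second most abundant member on average. Its WT values were 1176, 1262, 1098 and 3509 RPKM, its Wfs1HZ values 3650, 84.8, 583 and 8014 RPKM, and its Wfs1KO values 1215, 221, 3359 and 34.2 RPKM. In Wfs1KO replicate 2, Reg2 was below every WT animal although Ctrb1 there (49546 RPKM) lay within the WT range of 41103 to 94362 RPKM. Wfs1HZ replicate 3, at 583 RPKM of Reg2 and 58609 RPKM of Ctrb1, was below every WT animal in the same way. From the highest to the lowest animal Reg2 differed 234-fold, against 37.8-fold for Reg1.

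Reg3b, the pancreatitis-associated protein, was at 627, 426, 288 and 1121 RPKM in WT, at 1228, 25.8, 177 and 1955 RPKM in Wfs1HZ and at 442, 46.0, 1271 and 4.00 RPKM in Wfs1KO. This 489-fold span was the widest of the members that were above 0 in every animal. Reg3g, an antibacterial lectin of the gut, was at 96.0, 83.9, 72.6 and 215.69 RPKM in WT, at 192, 4.11, 26.0 and 389 RPKM in Wfs1HZ and at 82.0, 10.3, 303 and 1.57 RPKM in Wfs1KO. Both genes were below every WT animal in Wfs1KO replicate 2 and Wfs1HZ replicate 3 as well as in the 2 exocrine-poor libraries, and WT and Wfs1KO overlapped.

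Reg3a, another lectin of the Reg3 group, was the least abundant member of the cluster. It was at 21.7, 21.2, 11.5 and 34.7 RPKM in WT, at 58.7, 2.17, 11.2 and 140.55 RPKM in Wfs1HZ and at 15.2, 2.52, 67.3 and 0 RPKM in Wfs1KO. The 0 in Wfs1KO replicate 4 allows up to 1.12 RPKM, the value of 3 reads on this transcript at the estimated depth, a limit that covers counting error only. Reg3a was below the lowest WT animal in the same 4 animals as Reg3b and Reg3g, but in Wfs1HZ replicate 3 only just (11.18 against 11.45 RPKM).

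Reg4, a member best known from the gut, was at or near the limit of detection. It was listed at 0 in 4 of 12 animals, and its highest value, 4.00 RPKM in Wfs1HZ replicate 2, stood for about 8.86 reads in the shallowest library. WT animals had 0 to 0.890 RPKM and Wfs1KO animals 0 to 0.890 RPKM. Its levels carried too few reads to rank animals, and it was left out of the ratios and correlations below.

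**Figure D1:**
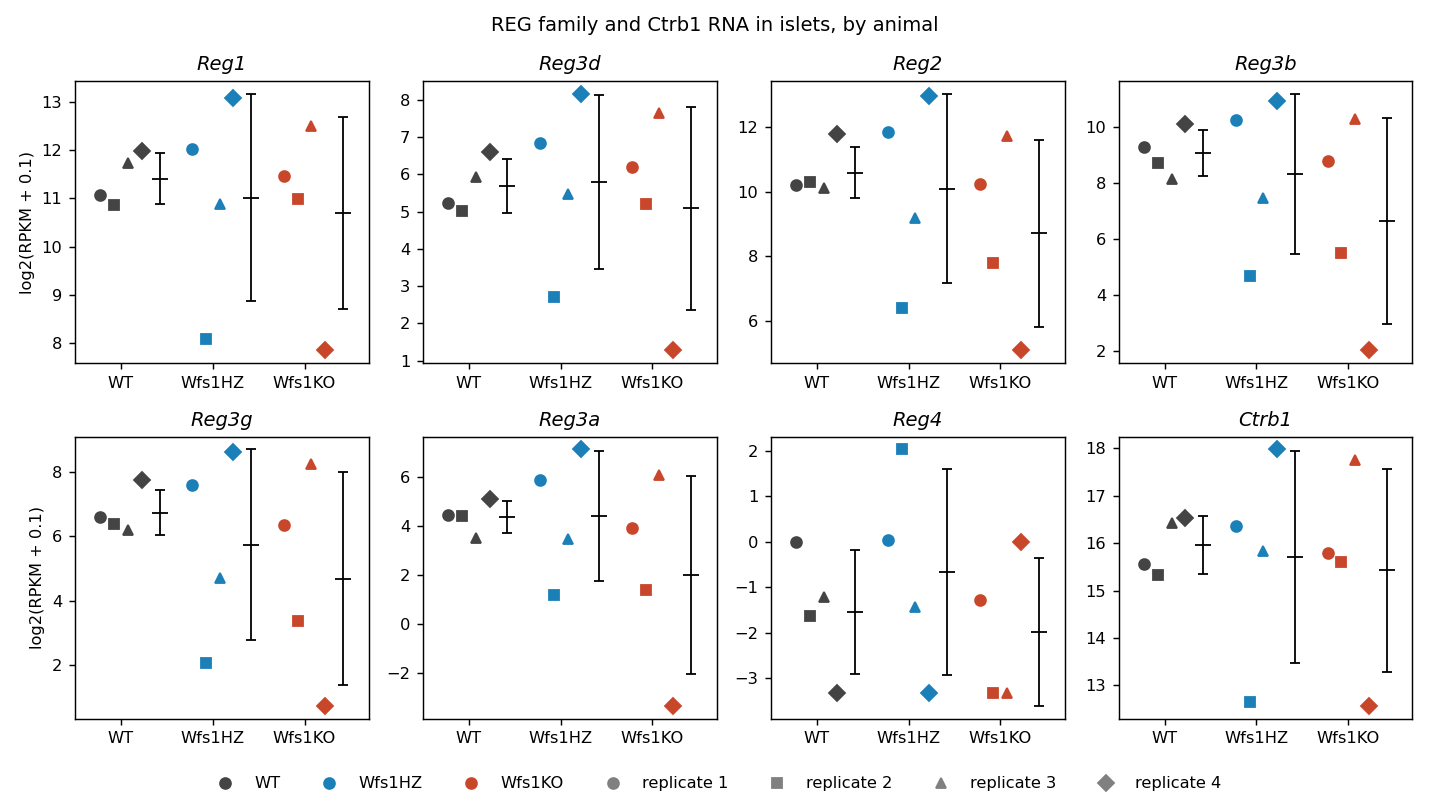
RNA of the 7 REG members and Ctrb1 in each animal, as log2(RPKM + 0.1), by genotype. Colours mark genotypes, marker shapes the replicate, and the black bar beside each group its mean ± SD (n = 4); Wfs1HZ replicate 2 and Wfs1KO replicate 4 sit at the bottom of Ctrb1 and of the 6 clustered members.

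The make-up of REG RNA differed between animals, mainly in the split between Reg1 and the Reg2 and Reg3 genes. Reg1 made up 44.8 to 69.0% of REG RPKM in WT, 44.2 to 69.3% in Wfs1HZ and 52.6 to 86.4% in Wfs1KO. The highest shares of Reg1 were those of Wfs1KO replicates 2 (86.4%) and 4 (84.2%). Reg2 made up 9.46% and 12.5% there, against 21.3 to 41.2% in the other 10 animals, and Reg3b made up 1.97% and 1.47%, against 5.83 to 15.3%. Wfs1HZ replicate 2, which was as poor in exocrine RNA as Wfs1KO replicate 4, had 67.9% Reg1 and 21.4% Reg2, close to WT replicate 3 (69.0% and 22.2%). The mix of members therefore differed between the 2 exocrine-poor libraries.

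**Figure D2:**
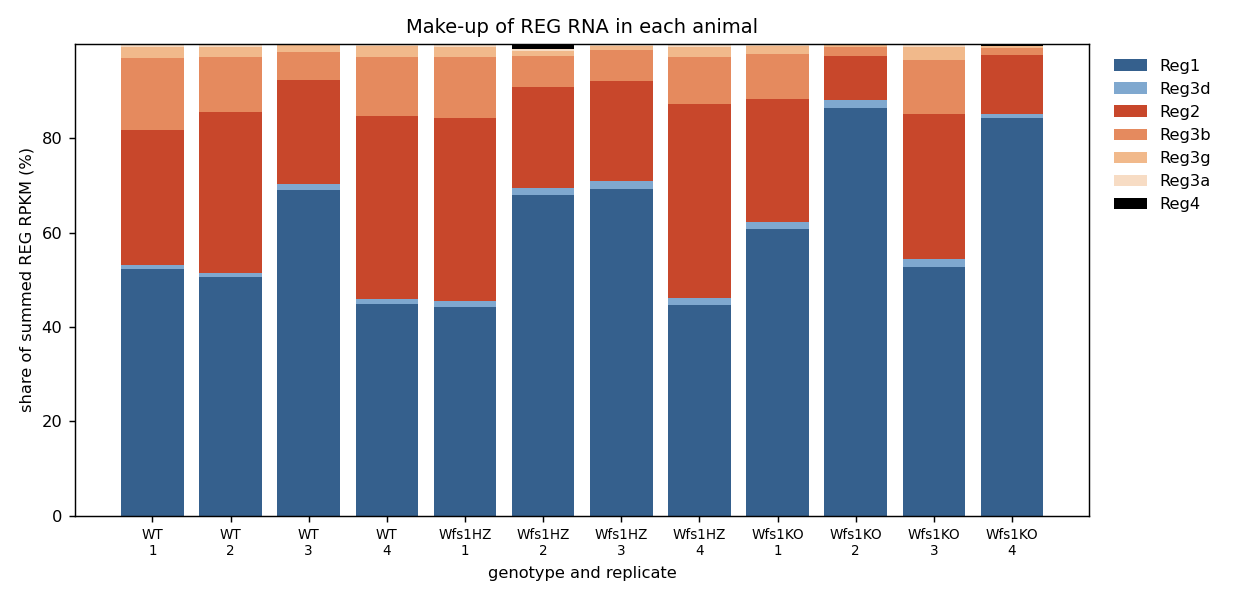
Share of each REG member in the summed REG RPKM of each animal, in percent, with genotype and replicate on the x axis. Reg1 takes 44.2 to 86.4%, and the Reg2 and Reg3b segments are smallest in Wfs1KO replicates 2 and 4.

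The first comparison asked whether loss of Wfs1 changed REG RNA. No member passed an FDR of 0.05 in Wfs1KO against WT by limma on log2(RPKM + 0.1), where 0.0138% of 21701 tested transcripts (3) passed. No member reached an unadjusted p of 0.05, which 5.64% of transcripts did (1225, of which 848 were higher in Wfs1KO), and none had genotypes without overlap, which 2.74% of transcripts had. All 7 members had a mean log2 level below that of WT, with a median log2 difference of -1.88 against 0.07 over all tested transcripts. The largest were Reg3b at -2.42 ± 1.54 (SE, limma adjusted p = 0.893), Reg3a at -2.36 ± 1.67 (limma adjusted p = 0.920), Reg3g at -2.05 ± 1.38 and Reg2 at -1.88 ± 1.25 (both limma adjusted p = 0.905). Reg1 was at -0.71 ± 0.94 (limma adjusted p = 0.950), Reg3d at -0.61 ± 1.15 and Reg4 at -0.44 ± 0.93. These scales compress low values because of the added 0.1 RPKM, above all for Reg4 and Reg3a.

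These differences depended on single Wfs1KO animals in both directions. Without replicate 4 Reg1 and Reg3d turned to 0.24 ± 0.63 and 0.66 ± 0.60, and Reg2 (-0.68 ± 0.92), Reg3a (-0.58 ± 0.97), Reg3b (-0.87 ± 1.05) and Reg3g (-0.74 ± 1.02) stayed below WT by less than 1 SE, with limma adjusted p of 0.827 to 0.955 over these 6. Without replicate 3, the Wfs1KO animal richest in exocrine RNA, the last 4 of these were at -2.88 ± 1.11 (Reg2), -3.71 ± 1.49 (Reg3a), -3.63 ± 1.40 (Reg3b) and -3.24 ± 1.17 (Reg3g), with limma unadjusted p of 0.0257 to 0.0399 and adjusted p of 0.747 to 0.753. In that setting 1418 of 21701 transcripts had an unadjusted p under 0.05, of which 1137 were higher in Wfs1KO. The 4 genes moved together across animals, as described below, and are not 4 separate calls. The Ctrb1 difference itself was -0.54 over all 4 animals, 0.41 without replicate 4 and -1.31 without replicate 3. With Ctrb1 as a covariate and all 8 animals, Reg3b was at -1.60 ± 0.75, Reg3a at -1.45 ± 0.71, Reg3g at -1.31 ± 0.63 and Reg2 at -1.21 ± 0.56 (limma adjusted p 0.594 to 0.616), while Reg1 was at -0.22 ± 0.37 and Reg3d at 0.06 ± 0.25.

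In Wfs1HZ against WT, 0 of 7 members passed an FDR of 0.05 by limma, as did 0% of all transcripts. None had an unadjusted p under 0.05 (2.35% of transcripts) or groups without overlap (1.66%). The log2 differences ran from -0.99 ± 1.20 (Reg3g) to 0.88 ± 1.16 (Reg4), with a median of -0.39 against 0.04 over all transcripts. Without Wfs1HZ replicate 2 the 6 clustered members were all above WT, from 0.24 ± 0.88 (Reg3g) to 1.13 ± 0.65 (Reg3d), and again none passed (limma adjusted p 0.893 to 0.983).

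In Wfs1KO against Wfs1HZ, 0 of 7 members passed, against 0% of all transcripts by FDR, 2.45% by unadjusted p and 1.43% by groups without overlap. The log2 differences ran from -2.40 ± 1.85 (Reg3a) to -0.32 ± 1.26 (Reg1), all with a limma adjusted p of 1, and their median was -1.31 against 0.04 over all transcripts. Without both exocrine-poor libraries they ran from -1.70 ± 1.39 (Reg3a) to -0.35 ± 0.91 (Reg1) for the clustered members. The comparisons share animals, so that their like signs are not independent.

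**Figure D3:**
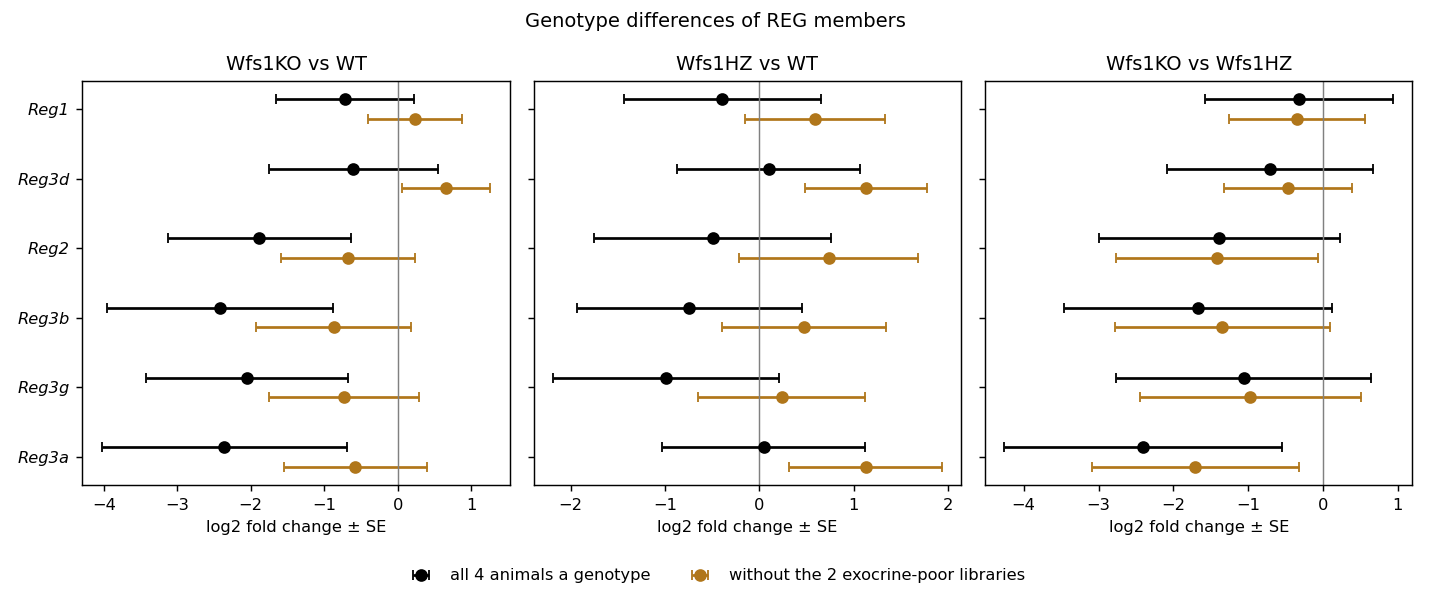
Log2 fold change ± SE (limma on log2(RPKM + 0.1)) of the 6 clustered REG members for the 3 genotype comparisons. Black points use 4 animals per genotype and brown points leave out Wfs1HZ replicate 2 and Wfs1KO replicate 4; without them Reg1 and Reg3d move from below to above 0 in Wfs1KO vs WT.

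The relation to exocrine RNA split the clustered members into 2 sets. Over the 10 animals without the exocrine-poor libraries, Reg1 (r = 0.954, rho = 0.879) and Reg3d (r = 0.950, rho = 0.903) followed Ctrb1 closely on the log2 scale. Each had a permutation p of 0.00027 after adjustment over 6 correlations. These 10 also held a gap in Ctrb1, with Wfs1HZ replicate 4 at 258070 and Wfs1KO replicate 3 at 220883 RPKM. The next highest animal was at 94362 RPKM. Without the 2 animals farthest from the median of Ctrb1, Wfs1HZ replicate 4 and Wfs1KO replicate 3, r was 0.907 for Reg1 and 0.846 for Reg3d. Reg2 (r = 0.752), Reg3a (r = 0.742), Reg3g (r = 0.720) and Reg3b (r = 0.653) followed it less tightly, with adjusted permutation p of 0.0188 to 0.0425. By rank the same 4 had rho of 0.564 to 0.636 and adjusted permutation p of 0.0886 to 0.0959. Without the 2 farthest animals their r was 0.412 to 0.582, so that this relation rests on those animals. The 12 animals fell into separate clusters of Ctrb1, and no r with Ctrb1 over all of them was tested. Values of r over 12 animals below only rank transcripts by likeness, and they rise with the gap between the clusters.

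An r of at least 0.7 with Ctrb1 was reached by 5 of the 6 members, Reg3b being the exception, against 0.53% of 21701 transcripts and 23 of 26 other acinar markers. The median r was 0.747 over the 6 members, 0.855 over the acinar markers and -0.40 over all transcripts. All RPKM of a library share its read total, and a transcript as abundant as Ctrb1 takes reads from all others. These r values are given as a description of the transcripts.

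**Figure D4:**
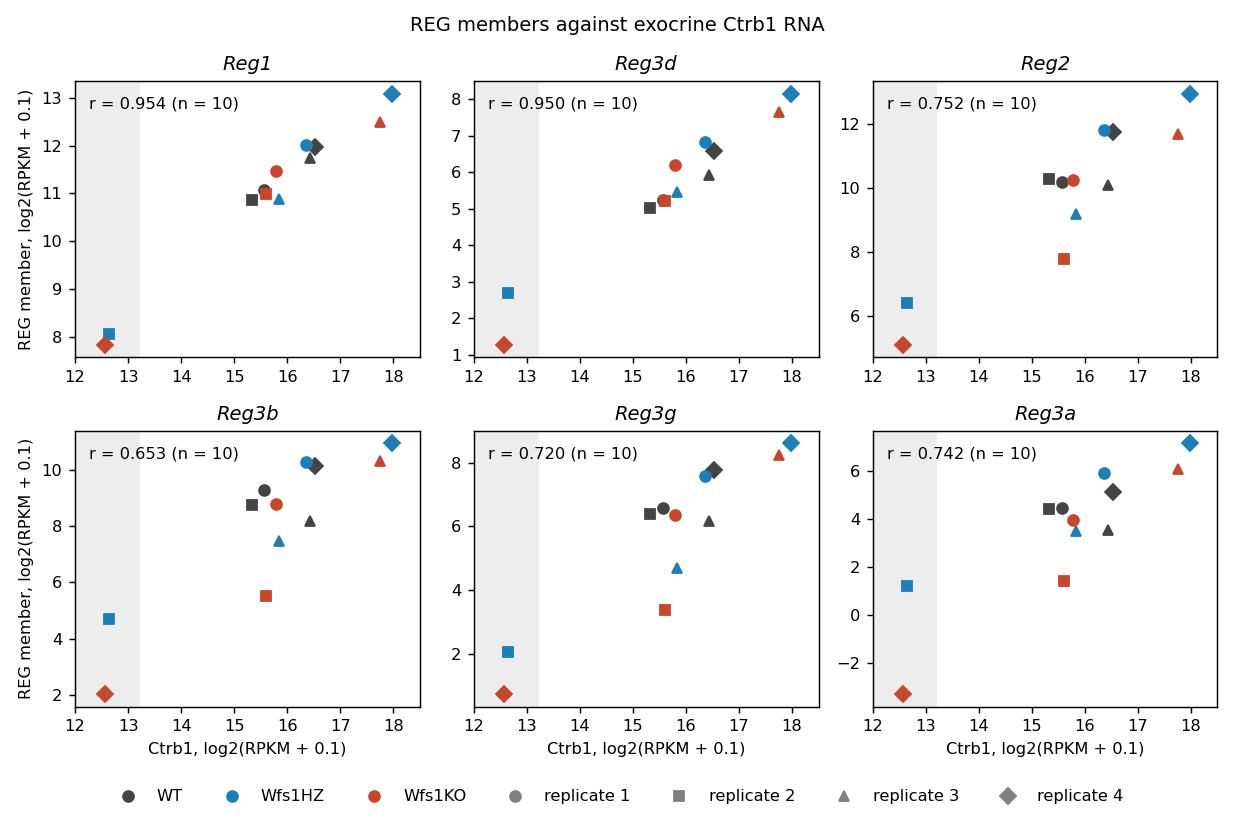
Each clustered REG member against Ctrb1, both as log2(RPKM + 0.1), 1 point per animal, with colour for genotype and shape for replicate. The grey band holds the 2 exocrine-poor libraries, which r leaves out (n = 10); Reg1 and Reg3d run along a line, and the other members fall below it in Wfs1KO replicate 2.

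Set against Ctrb1 in the same library, Reg1 was nearly constant. Ctrb1 was 22.0 to 26.0 times Reg1 in WT, 20.2 to 30.8 times in Wfs1HZ and 19.9 to 38.2 times in Wfs1KO, although each of them ranged over more than an order of magnitude. The 2 exocrine-poor libraries had 23.7 and 26.4 times, inside that range. Reg3d varied more, from 735 to 1455 times less than Ctrb1 in 11 animals and 2609 times less in Wfs1KO replicate 4. There it had only 2.33 RPKM, or about 5.92 reads.

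Reg2, Reg3b and Reg3g varied far more against Ctrb1. Ctrb1 was 22.9 to 100.5 times Reg2 in all animals but Wfs1KO replicates 2 and 4, in which it was 224 and 178 times. For Reg3b the same 2 animals stood at 1077 and 1520 times, against 68.2 to 331 in the other 10, and for Reg3g at 4820 and 3872 times, against 436 to 2259. In Wfs1KO replicate 4, Reg3b and Reg3g stood for only about 10.2 and 3.93 reads. The other Wfs1KO animals, replicates 1 and 3, stood at 46.4 and 65.8 times for Reg2 and at 128 and 174 times for Reg3b. These lay inside the WT range only through WT replicate 3 (80.7 and 308 times), since the other 3 WT animals spanned 26.9 to 41.1 times for Reg2 and 77.2 to 96.5 times for Reg3b. In Wfs1HZ, replicates 2 and 3 (75.3 and 100.5 times for Reg2) also lay above those 3 WT animals, and for Reg2 replicates 1 and 4 (22.9 and 32.2 times) did not. Wfs1HZ replicate 4 did lie above them for Reg3b (132 times) and for Reg3g (663 times, against 437 to 504). Animals were singled out here after their values were seen.

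In tests over animals, the genotypes overlapped for every ratio, and no exact permutation p was below 0.114. For Reg3b the mean log2 difference to Ctrb1 was -8.76 ± 1.80 in Wfs1KO and -6.88 ± 0.93 in WT (SD, n = 4 each), a change of -1.88 with an exact two-sided permutation p of 0.171. The changes were -1.82 for Reg3a (exact permutation p = 0.171), -1.51 for Reg3g (exact permutation p = 0.171), -1.34 for Reg2 (exact permutation p = 0.114), -0.18 for Reg1 (exact permutation p = 0.514) and -0.07 for Reg3d (exact permutation p = 0.829). Without Wfs1KO replicate 4, in which Reg3a was at 0 and its log2 value was set by the added 0.1 RPKM, the changes were -0.99 for Reg3a, -1.29 for Reg3b, -1.15 for Reg3g and -1.09 for Reg2. Over all 18 tests of 6 members and 3 comparisons, adjusted values were 0.514 to 0.829, and 4 animals against 4 allow no exact p below 0.0286. After adjustment, a ratio at that limit could pass the FDR threshold only if most of the others were at the limit as well. The adjusted values therefore cannot decide whether a single ratio differed by genotype.

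Among themselves Reg2, Reg3a, Reg3b and Reg3g moved together more tightly than with Ctrb1. Their 6 pairs had r of 0.957 to 0.986 over the 10 animals, and Reg1 with Reg3d had 0.978. The 8 pairs between the sets had 0.749 to 0.854. After the Ctrb1 level was subtracted from each member, the 4 genes still had r of 0.912 to 0.977, and Reg1 with Reg3d had 0.337. Pairs of Reg1 with the 4 genes had 0.181 to 0.363, and pairs of Reg3d with them 0.529 to 0.624. After subtraction, Reg3d was thus closer to each of the 4 genes than to Reg1, and only the set of 4 held together. All of these values share the same libraries and, after subtraction, the same Ctrb1 values, and they are given without a test. The sets do not follow position, since Reg1 lies between Reg2 and Reg3g and Reg3d between Reg3b and Reg3a, nor do they follow transcript identity, in which Reg1 is closest to Reg2.

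**Figure D5:**
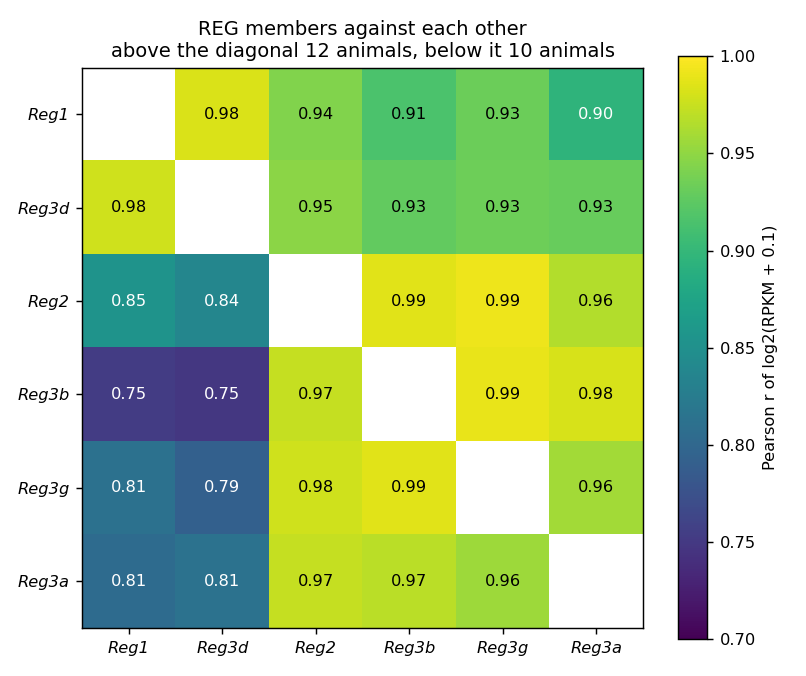
Pearson r of log2(RPKM + 0.1) between the 6 clustered REG members, over 12 animals above the diagonal and, below it, over the 10 animals without the exocrine-poor libraries. Reg1 with Reg3d and the block of Reg2, Reg3b, Reg3g and Reg3a are at 0.957 or more below the diagonal, and pairs between the sets are at 0.749 to 0.854.

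The transcripts most like each member over 12 animals were taken out of 13356 with a mean of at least 1 RPKM. The sets of members described above rest on correlations in the same animals. The nearest transcripts therefore describe these sets and are not a separate test of them. Nearest to Reg1 were the pancreatic lipase relative Pnliprp1 (r = 0.993), the predicted gene Gm10334 (0.989), the kallikrein Klk1 (0.988), Ctrb1 (0.987) and the trypsinogen Prss2 (0.986). Over the 10 animals these were 0.963, 0.972, 0.963, 0.954 and 0.920, all below Reg3d with Reg1 (0.978). Nearest to Reg3d were Reg1 (0.983), Pnliprp1 (0.977), Ctrb1 (0.977), Ceacam1 (0.976) and Prss2 (0.972), which over the 10 animals were 0.978, 0.938, 0.950, 0.919 and 0.926. Of these 10 places, 6 were held by acinar markers, the same genes for both members (Pnliprp1, Ctrb1 and Prss2). Ctrb1 is also the gene with which both members were compared above. The acinar list has 27 genes.

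Nearest to Reg2 were Reg3g (0.993), Reg3b (0.987), the stress-induced nuclear protein gene Nupr1 (0.971), the secreted chaperone clusterin Clu (0.966) and Reg3a (0.965), and no acinar marker of the list was among the 5. The other 3 genes of the set also had each other as their nearest members, with Nupr1 beside Reg3b (0.952) and Reg3g (0.954), Clu beside Reg3g (0.955), Klk1b5 beside Reg3a (0.981) and Reg3b (0.968), and the protease inhibitor gene Serpinb1a beside Reg3a (0.949). Over the 10 animals, Nupr1 had r of 0.915 with Reg2, 0.876 with Reg3b and 0.862 with Reg3g, Clu had 0.898 with Reg2 and 0.866 with Reg3g, Klk1b5 had 0.943 with Reg3a and 0.892 with Reg3b, and Serpinb1a had 0.897 with Reg3a. Nupr1 was at 558 to 1550 RPKM in WT and at 151 and 110 RPKM in the 2 exocrine-poor libraries. In Wfs1KO replicate 2 it was at 475 RPKM, just below the lowest WT animal. In Wfs1HZ replicate 3, where Reg2, Reg3b and Reg3g were also below every WT animal, Nupr1 was at 680 RPKM, inside the WT range.

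Genes of REG binding and induction were measured beside the family. Counts of list genes at an unadjusted p under 0.05 are to be read against the 5.64% of all transcripts in Wfs1KO against WT. Extl3 was at 10.7 to 24.1 RPKM in all animals, and its Wfs1KO to WT difference was 0.14 ± 0.19 (log2, limma adjusted p = 0.954). Egfr, proposed to be engaged downstream of REG proteins, was at 6.44 to 15.9 RPKM with a difference of 0.01 ± 0.31. Of the 5 genes listed for REG binding and signalling, 0 passed an FDR of 0.05 by limma in any comparison. In Wfs1KO against WT, 1 (Cd44) had an unadjusted p under 0.05, and Bcl10, a signalling adaptor, was at 0.21 ± 0.16. Cd44, a hyaluronan receptor named as a REG binding partner, was at 38.7, 37.9, 50.9 and 33.8 RPKM in WT and 77.3, 89.4, 73.4 and 43.5 RPKM in Wfs1KO. It was higher by 0.78 ± 0.24 with a limma unadjusted p of 0.0105 and an adjusted p of 0.835, and the genotypes overlapped through Wfs1KO replicate 4. Against Wfs1HZ it was higher by 0.82 ± 0.31 (limma unadjusted p = 0.0253, adjusted p = 1).

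Of 24 genes of cytokine receptors and STAT3 signalling, 0 passed an FDR of 0.05 by limma in any comparison, 1 was lower at an unadjusted p under 0.05 in Wfs1KO against WT, and the median log2 difference there was 0.12 against 0.07 over all transcripts. Stat3 was at 103.22 to 186.1 RPKM (-0.17 ± 0.19 in Wfs1KO against WT), the shared cytokine receptor Il6st at 64.3 to 148.17 RPKM (0.16 ± 0.17), Il6ra at 7.99 to 28.1 RPKM (0.13 ± 0.21) and Il22ra1, the IL-22 receptor, at 0.780 to 3.55 RPKM (0.37 ± 0.52). In Wfs1HZ against WT, 2 of the 24 genes were lower at an unadjusted p under 0.05 and without overlap, against 2.35% and 1.66% of all transcripts. Il6ra was 1 of these (-0.56 ± 0.24, limma unadjusted p = 0.0409). The other was Il22 (-1.99 ± 0.61, limma unadjusted p = 0.0088). Its values were low and near the limit of detection, at 0.31 to 0.72 RPKM in WT and 0 to 0.18 RPKM in Wfs1HZ. Socs3, the feedback inhibitor that STAT3 induces, was at 10.9, 10.5, 17.5 and 17.4 RPKM in WT and at 36.2, 38.8, 16.6 and 11.7 RPKM in Wfs1KO (0.74 ± 0.40, limma adjusted p = 0.879). Il6 was at 30.8, 16.0, 96.7 and 65.5 RPKM in WT and at 98.7, 125.19, 155.82 and 10.3 RPKM in Wfs1KO (0.67 ± 0.88). Socs3 was highest in Wfs1KO replicate 2, which had low Reg2, Reg3a, Reg3b and Reg3g for its Ctrb1. It was nearly as high in Wfs1KO replicate 1, where Ctrb1 was only 46.4 times Reg2 and 128 times Reg3b. Wfs1KO replicate 4, in which those 4 REG genes were also low for its Ctrb1, had the lowest Il6 of all 12. A relation of Socs3 or Il6 to REG RNA was not tested.

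Of 20 tested acute-phase and antimicrobial genes, 0 passed an FDR of 0.05 by limma in any comparison and 1 was lower at an unadjusted p under 0.05 in Wfs1KO against WT, with a median log2 difference of 0.19. Lcn2, the bacterial siderophore binder lipocalin 2, was as abundant as Reg genes, at 562 to 1663 RPKM in WT, 432 to 2143 in Wfs1HZ and 2861, 2468, 2151 and 192.51 RPKM in Wfs1KO. Lcn2 did not share the REG pattern in Wfs1KO replicate 2, where it was above every WT animal while Reg3g was below every WT animal. Defb1, a defensin, averaged 117 RPKM. Dmbt1, another mucosal defence gene, was at 17.6 and 20.2 RPKM in the 2 exocrine-poor libraries and at 116.22 to 466 RPKM elsewhere.

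Markers of other cells were checked over whole lists, and their part in the REG levels was not tested. Ductal markers (12 genes, none at 0 in any animal) summed to 1057 to 1902 RPKM in WT, 744 to 2202 in Wfs1HZ and 435 to 2425 in Wfs1KO. Immune markers (13 genes, with C1qb, Cd79a and S100a8 at 0 in at least 1 animal) summed to 79.9 to 234, 89.2 to 143 and 48.7 to 163 RPKM. Stromal and endothelial markers (10 genes, none at 0) summed to 36.1 to 85.8 RPKM in WT and to 105.32 to 197 RPKM in Wfs1KO, so that these 2 genotypes did not overlap, with 30.4 to 473 RPKM in Wfs1HZ. Of these 10 genes 0 passed an FDR of 0.05 by limma in Wfs1KO against WT, 9 had a mean log2 level above WT with a median difference of 1.03, and 2 had genotypes without overlap, against 2.74% of all transcripts. Those 2 were the matrix proteoglycan gene Dcn (1.39 ± 0.27, limma unadjusted p = 0.0006, adjusted p = 0.435) and the endothelial cadherin gene Cdh5 (1.35 ± 0.28, limma unadjusted p = 0.00094, adjusted p = 0.500). Acinar markers summed to 64890 to 143564 RPKM in WT, 11278 to 364699 in Wfs1HZ and 11470 to 341558 in Wfs1KO. Of the 27 acinar markers 0 passed an FDR of 0.05 by limma in Wfs1KO against WT and 1 was higher at an unadjusted p under 0.05, with a median log2 difference of -0.21.

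The levels of the most abundant genes of these lists were set beside those of the REG members. After Ctrb1 the acinar list was led by the zymogen granule protein Sycn (13287 RPKM on average over the 12 animals) and the lipase cofactor Clps (4832 RPKM), both above the mean of Reg1 (3110 RPKM). The ductal list was led by Spp1 (874 RPKM), Krt18 (361 RPKM) and Tff2 (87.4 RPKM), and Reg2 (2017 RPKM) was above each of them. The immune list was led by Cd14 (52.5 RPKM), Cd68 (51.3 RPKM) and S100a9 (9.17 RPKM), and the stromal and endothelial list by Dcn (48.3 RPKM), Cdh5 (21.1 RPKM) and Pecam1 (15.5 RPKM). All 6 of those genes were below the mean of Reg3d (82.4 RPKM). The leading genes of both endocrine lists were above Reg1 on average, with Ins1 at 37619, Ins2 at 34894 and Iapp at 6436 RPKM on average for beta cells and Gcg at 101385, Ppy at 7647 and Pyy at 4229 RPKM for the other endocrine cells. Of the 9 tested beta cell markers and the 8 other endocrine markers, 0 passed an FDR of 0.05 by limma in Wfs1KO against WT, and 2 beta cell markers were lower at an unadjusted p under 0.05.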

How the data were processed

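Islet RNA of 12 mice, 4 per genotype, was sequenced per animal, with 10 ng of total RNA per library, on the SOLiD 5500xl system (75 bp forward, 35 bp reverse). Per the labels and the study's methods, the authors mapped reads to mm10 with LifeScope and tested counts with edgeR. They deposited RPKM per gene and animal, in a single table of 24078 rows. The tool and annotation behind the RPKM are not given in the sources used here. RPKM are not counts, so the count test was not repeated.

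Here log2(RPKM + 0.1) was compared with limma 3.58.1 (eBayes with trend, R 4.3.3) per pair of genotypes over 21701 rows with a mean of at least 0.1 RPKM, with Benjamini-Hochberg adjustment over all of them. Ctrb1 ratios were compared by exact two-sided permutation tests and correlations over 10 animals by 100000 permutations (scipy 1.17.1). Read numbers were estimated as the smallest total that made 95.7 to 100% of values of RNAs under 200 nt whole reads within 0.06. They set the limit of 3 reads, are approximate and lie well below the totals of reads per sample that the study gives. The limma step was tested on simulated data.

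The family members and gene lists were chosen with earlier results of these data known. Genes named were the members, Ctrb1, Extl3, Egfr, Il6ra, Il6st, Il22ra1, Stat3, Socs3, the 5 transcripts most like each member by Pearson r and the 3 most abundant genes of each list a result used. Il22 was named besides, as the other gene of a count that held Il6ra. Of the listed markers, Amy2a5 and Adgre1 had no row under that name. Alternatives were another pseudocount or filter, median-of-ratios scaling, all genotypes in a single fit, sample weights, a replicate block, Ctrb1 as a covariate, an acinar list in place of Ctrb1 and leaving out animals. Replicate numbers were not taken as a pairing, since the labels give none. The correlations of same-numbered animals ran from -0.17 to 0.23, which cannot exclude a pairing.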

Additional observations from a re-analysis of the deposited data

Results flagged for a closer look

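Dixon's test was run on 42 groups of 4 animals, in which chance alone flags about 1 in 20, and it set 3 values apart. Reg2 in WT replicate 4, at 3509 RPKM, was the highest of the WT animals, with a gap to the next of 0.880 of the group's log2 range. Relative to Ctrb1, Reg3b in WT replicate 3 was the lowest of WT, with a gap of 0.839 of the range, and Reg3g in the same animal was the lowest as well, with a gap of 0.863. That animal had 288 RPKM of Reg3b and 72.6 RPKM of Reg3g, which stood for about 650 and 161 reads. Its library was estimated at 2884000 reads, the fewest of the WT libraries. Whether depth bears on these values was not tested.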

How the results depend on the processing

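The count of members past an FDR of 0.05 by limma was 0 in all 3 comparisons under every alternative run, as it was with a replicate block (0 members), without both exocrine-poor libraries (chosen after seeing the data) and without each animal in turn. Whether replicate numbers pair animals is not known. Each genotype holds every replicate number once, so the block cannot change the member differences themselves, only their errors and p. The rest of this account concerns directions of differences that never passed, so that a change of sign is a change within error. By setting, the log2 difference of Reg3d in Wfs1KO against WT was 0.0063 with sample weights and 0.064 with Ctrb1 as a covariate, that of Reg3a in Wfs1HZ against WT was -0.14 with sample weights, and that of Reg3d relative to Ctrb1 in Wfs1KO against WT was 0.033 with a pseudocount of 1 RPKM.

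Without each animal in turn, Wfs1KO against WT ran from -1.31 to 0.24 for Reg1, from -1.46 to 0.66 for Reg3d and from -1.09 to 0.075 for Reg4, and stayed below 0 for Reg2 (-2.88 to -0.68), Reg3a (-3.71 to -0.58), Reg3b (-3.63 to -0.87) and Reg3g (-3.24 to -0.74). Wfs1HZ against WT ran from -1.08 to 0.59 for Reg1, -1.45 to 0.74 for Reg2, -0.86 to 1.13 for Reg3a, -1.61 to 0.47 for Reg3b, -0.69 to 1.13 for Reg3d, -1.94 to 0.24 for Reg3g and -0.026 to 1.76 for Reg4. Wfs1KO against Wfs1HZ ran from -1.30 to 0.63 for Reg1, -1.74 to 0.56 for Reg3d and -2.28 to 0.25 for Reg3g. Relative to Ctrb1, the ranges were -0.32 to 0.25 for Reg3d in Wfs1KO against WT, -0.60 to 0.11 for Reg2 and -0.14 to 0.66 for Reg3a in Wfs1HZ against WT, and -0.18 to 0.13 for Reg1 in Wfs1KO against Wfs1HZ. Other members kept their direction under those settings. With 3 animals against 4 these ratio tests have few arrangements, and their adjusted p were above 0.05 with all 8 animals as well.

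The correlations of Reg1 and Reg3d with Ctrb1 kept their side of the threshold under every alternative run. Those of the other 4 members did not. With the acinar list in place of Ctrb1, r of Reg3b was 0.59. Without the 2 animals farthest from the median of Ctrb1, r was 0.58 for Reg2, 0.41 for Reg3a, 0.44 for Reg3b and 0.50 for Reg3g. Without each animal in turn r ran from 0.62 to 0.79 for Reg2, 0.60 to 0.79 for Reg3a, 0.55 to 0.71 for Reg3b and 0.63 to 0.77 for Reg3g, and each was lowest without Wfs1HZ replicate 4. Fewer animals are left in these settings. Depth limits Reg4 in all libraries and Reg3a, Reg3d and Reg3g in the 2 exocrine-poor ones, where values stand for few reads. In Wfs1KO replicate 4 and Wfs1HZ replicate 2, Reg3g stood for about 3.93 and 6.88 reads and Reg3d for about 5.92 and 10.9. Reg3b stood for about 10.2 reads in Wfs1KO replicate 4.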
